A study of Mus musculus with 10 samples.

Results

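The genes described here are 10 genes of the germinal centre B cell programme, Mybl1, S1pr2, Gcsam, Fas, Rgs13, Basp1, Lmo2, Efnb1, Neil1 and Nuggc. They were chosen by name, with earlier results of these data already known. Each was matched by gene symbol to the array's probe sets (gene positions below are RefSeq's on build GRCm38.p6). All 10 of 10 were measured, each by 1 probe set, among 19937 genes in all. The samples were B220+CD22+ B cells sorted by FACS from mouse spleen, hybridised to 10 Affymetrix Mouse Gene 1.0 ST arrays, which read each gene with a set of short probes along the transcript.

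Mice of 3 genotypes were compared, all on the CBAxC57BL/6J background, with the same tissue and the same sort. Wild-type mice gave 3 arrays. Sca1-Bcl6(floxed) mice, called floxed here, gave 3 arrays and carried a transgene in which a mouse Bcl6 and eGFP cassette, flanked by loxP sites, had been placed in a vector that drives expression from the Ly6/Sca1 locus, which is active in blood stem and progenitor cells. Sca1-Bcl6(delta) mice, called delta here, gave 4 arrays and came from crossing the floxed mice to mb1-Cre mice, whose Cre recombinase acts in the B lineage from the Cd79a locus. More than 1 transgenic line was made, and the labels do not say which line an array came from, nor the age of the mice. They do not say that the arrays of a group are separate animals either, so p-values measure the spread between these samples, and the small number of arrays limits the precision.

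Germinal centres are the sites in lymphoid follicles where B cells that have met antigen divide, mutate their antibody genes and are selected. Bcl6, a transcriptional repressor, is required for B cells to enter and stay in this state, and germinal centre B cells are a small fraction of the B cells of an unimmunised spleen. The sort gate did not select them. In a bulk sample, fewer cells of a type and less RNA per cell cannot be told apart.

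The 10 genes act at several points of that state. S1pr2, Rgs13 and Gcsam shape how the cells move and stay in the follicle. Fas and Efnb1 are surface proteins that meet partners on other cells. Mybl1, Lmo2 and Basp1 act in transcription, and Neil1 and Nuggc work on DNA or in the nucleus.

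The median intensity of an array lay between 139 and 145 on the linear scale. The deposited values were made with RMA, which equalises the arrays' distributions, so the even medians say nothing of array quality. The correlation across genes was 0.993 to 0.997 between arrays of 1 group and 0.989 to 0.996 between arrays of different groups. The defining B cell markers were high on every array, with a mean log2 level of 12.70 to 12.87 over 11 measured B cell genes. Xist and the Y-linked genes split the arrays into a female pattern (3 of 3 wild-type and 3 of 4 delta arrays) and a male pattern (3 of 3 floxed arrays and delta 1), so in floxed against wild-type the sex pattern and the genotype cannot be told apart. Levels below are log2 of the deposited intensity, and genotype differences are differences of mean log2 level, tested with limma on all 10 arrays with p-values adjusted by Benjamini and Hochberg's method across all 19937 genes and called under 0.05. Both transgenic groups were compared with the same 3 wild-type arrays.

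Across the 3 genotypes, no gene of the set passed the test. In floxed against wild-type, 0 of 10 passed, where 0.552% of all genes did (110 of 19937), and 2 of 10 (Fas and Basp1) had an unadjusted p under 0.05, as 12.8% of all genes did. In delta against wild-type, 0 of 10 passed against 0.0752% of all genes, and 1 (Neil1) had an unadjusted p under 0.05 against 7.89% of all genes. In delta against floxed, 0 of 10 passed against 0.00502% of all genes, and 1 (Basp1) had an unadjusted p under 0.05 against 6.42% of all genes. The shifts of the set were small: its median log2 difference was 0.06 in floxed against wild-type, where the median of all genes was -0.02, and 8 of the 10 lay above 0 compared with 41.9% of all genes. Of those above 0, Gcsam, Lmo2 and Nuggc lay at 0.013, 0.0094 and 0.0032 and changed direction in some fits without 1 array. In delta against wild-type the median of the set was 0.01 with 5 of 10 above 0, beside 43.6% of all genes. In delta against floxed it was -0.07 with 3 of 10 above 0, beside 52.1% of all genes. The wild-type arrays had the largest SD of the 3 groups for Mybl1, S1pr2, Gcsam, Fas, Rgs13 and Nuggc, but not for Basp1, Lmo2, Efnb1 and Neil1. Wild-type 1 was the highest of all 10 arrays for 5 of the genes, as it was for 7.65% of all genes.

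**Figure D1:**
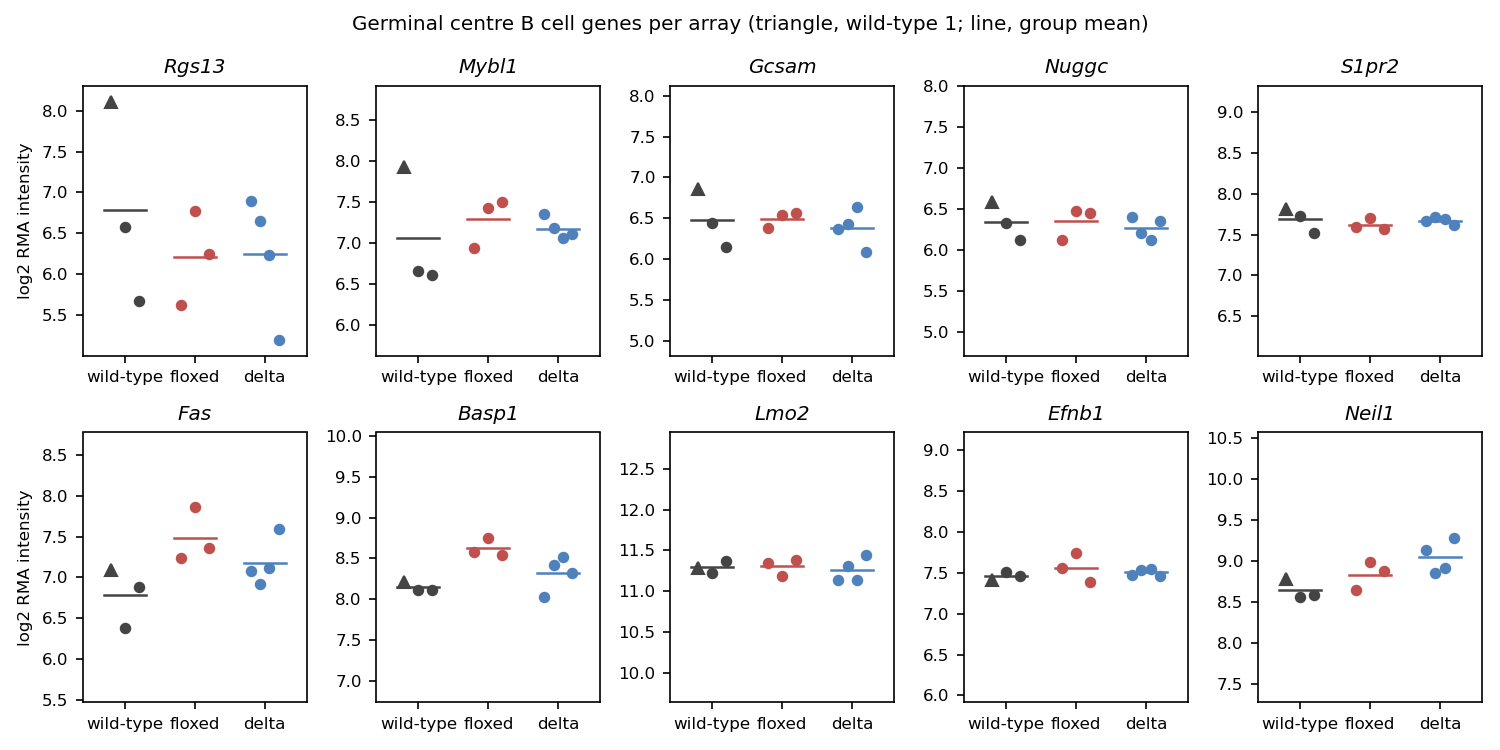
Log2 level (log2 of the deposited RMA intensity, vertical axis, same span of log2 units in every panel) of the 10 germinal centre genes on each array, by genotype; points are arrays, the triangle is wild-type 1 and short lines are group means. Rgs13 spreads most, from 5.19 on delta 4 to 8.11 on wild-type 1, followed by Fas and Mybl1, while Lmo2, Efnb1 and S1pr2 stay nearly level.

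Rgs13 (probe set 10358399; gene at chr1:144137386-144177372) encodes a regulator of G protein signalling that shortens signals from chemokine receptors in germinal centre B cells. The log2 level of Rgs13 was 8.11, 6.58 and 5.68 in wild-type 1, 2 and 3, then 5.62, 6.77 and 6.25 in floxed 1, 2 and 3, and 6.89, 6.65, 6.24 and 5.19 in delta 1 to 4. Wild-type 1 was the highest array and delta 4 the lowest, and all 3 groups overlapped. The mean was 6.79 ± 1.23 (SD, n = 3) for wild-type, 6.21 ± 0.58 (SD, n = 3) for floxed and 6.24 ± 0.75 (SD, n = 4) for delta arrays. The floxed minus wild-type difference was -0.58 (95% CI -1.81 to 0.66; limma adjusted p = 0.720) and the delta minus wild-type difference -0.55 (95% CI -1.70 to 0.61; adjusted p = 0.881). Neither exceeded the spread between arrays, and the intervals allow a change of more than 1 log2 unit downwards. Rgs13 had a within-group SD of 0.88, larger than that of 99.9% of all genes. Its levels on delta 4, floxed 1 and wild-type 3 lay in or near the range of Y-linked genes on arrays of female pattern (3.71 to 5.62). Such low levels may lie near background, which was not tested. Without wild-type 1 the differences became 0.08 (adjusted p = 0.967) and 0.11 (adjusted p = 0.987), so both directions rested on that array.

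S1pr2 (probe set 10591412; gene at chr9:20965952-20976793) encodes the sphingosine-1-phosphate receptor that couples to G12 and G13 proteins and holds B cells within the germinal centre. On the log2 scale S1pr2 stood at 7.82, 7.73 and 7.52 in wild-type 1 to 3, then 7.59, 7.70 and 7.56 in floxed 1 to 3, and 7.66, 7.72, 7.69 and 7.62 in delta 1 to 4. The whole range was narrow, and the floxed and delta arrays lay within the wild-type range. Differences were -0.07 for floxed minus wild-type (95% CI -0.25 to 0.10; limma adjusted p = 0.763) and -0.02 for delta minus wild-type (95% CI -0.18 to 0.15; adjusted p = 0.984). The within-group SD of S1pr2 was 0.095, larger than that of 40.8% of all genes, so its narrow range was not unusual for a gene on these arrays.

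Gcsam (probe set 10436024; gene at chr16:45610440-45622867) encodes a signalling adaptor of germinal centre B cells that restrains their motility. Log2 levels of Gcsam were 6.85, 6.44 and 6.15 in wild-type 1 to 3, then 6.38, 6.54 and 6.56 in floxed 1 to 3, and 6.37, 6.43, 6.63 and 6.08 in delta 1 to 4. Wild-type 1 was again the highest array and delta 4 the lowest, as for Rgs13. The group means were 6.48 ± 0.35 (SD, n = 3) for wild-type, 6.50 ± 0.10 (SD, n = 3) for floxed and 6.38 ± 0.23 (SD, n = 4) for delta arrays. The differences from wild-type were 0.01 for floxed (limma adjusted p = 0.985) and -0.10 for delta (adjusted p = 0.938).

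The promoter windows of these genes are shown because Rgs13, S1pr2 and Gcsam had their highest level on the same array as Bcl6, and Fas is shown beside them as the only window of the set with a site of the type that BCL6 and STAT proteins bind. Sequences are from RefSeq (build GRCm38.p6), from 250 bases before to 50 bases after the annotated start, on the strand of the gene. Windows of 7 of the 10 genes were searched, without Mybl1, Lmo2 and Nuggc. Capitals mark TTCNNNGAA (the STAT and BCL6 type) in the Fas window and AACNG (the core letters bound by MYB proteins), read on either strand, in the other windows.
Rgs13, chr1:144177323-144177622, minus strand: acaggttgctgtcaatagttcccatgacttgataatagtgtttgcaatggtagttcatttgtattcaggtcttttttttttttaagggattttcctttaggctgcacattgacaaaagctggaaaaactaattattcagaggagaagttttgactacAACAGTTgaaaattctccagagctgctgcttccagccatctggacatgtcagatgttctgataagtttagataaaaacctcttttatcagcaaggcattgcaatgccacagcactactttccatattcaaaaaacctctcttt
S1pr2, chr9:20976744-20977043, minus strand: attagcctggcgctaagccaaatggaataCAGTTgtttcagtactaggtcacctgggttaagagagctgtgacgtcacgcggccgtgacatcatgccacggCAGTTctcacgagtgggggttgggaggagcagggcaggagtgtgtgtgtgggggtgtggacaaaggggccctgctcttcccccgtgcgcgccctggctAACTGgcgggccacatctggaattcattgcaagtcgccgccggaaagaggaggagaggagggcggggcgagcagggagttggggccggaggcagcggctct
Gcsam, chr16:45610190-45610489, plus strand: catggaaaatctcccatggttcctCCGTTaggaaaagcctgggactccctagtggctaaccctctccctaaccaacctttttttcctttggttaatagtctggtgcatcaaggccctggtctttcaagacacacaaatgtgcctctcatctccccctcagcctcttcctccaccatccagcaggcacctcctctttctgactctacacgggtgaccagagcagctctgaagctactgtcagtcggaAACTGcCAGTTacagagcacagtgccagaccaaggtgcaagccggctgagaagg
Fas, chr19:34290409-34290708, plus strand: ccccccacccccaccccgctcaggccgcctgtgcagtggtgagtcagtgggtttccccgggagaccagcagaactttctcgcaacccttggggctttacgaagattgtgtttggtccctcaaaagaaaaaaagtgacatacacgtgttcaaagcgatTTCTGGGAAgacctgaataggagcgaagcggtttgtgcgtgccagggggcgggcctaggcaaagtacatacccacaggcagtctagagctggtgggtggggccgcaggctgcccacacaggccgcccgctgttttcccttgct
TTCNNNGAA was present in 1 of the 7 windows and in 8.3% of all 32851 RefSeq promoter windows of mouse. AACNG is short and common: it was present in 6 of the 7 windows, Basp1 being the exception, and in 80.3% of all windows. The MEF2 type, CTA and TAG with 4 bases between them, was present in 0 of the 7 windows and in 3.69% of all windows. The search took both strands, overlapping matches of 1 motif counted, and a match is only a match of letters.

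Fas (probe set 10462603; gene at chr19:34290647-34327775) encodes the death receptor that is raised on germinal centre B cells. Fas had log2 levels of 7.09, 6.38 and 6.89 in wild-type 1 to 3, then 7.24, 7.86 and 7.36 in floxed 1 to 3, and 7.08, 6.92, 7.11 and 7.59 in delta 1 to 4. All 3 floxed arrays lay above all 3 wild-type arrays, a separation that 7.6% of all genes showed in that direction, while the delta arrays overlapped both groups. The means were 6.79 ± 0.36 (SD, n = 3) for wild-type, 7.48 ± 0.33 (SD, n = 3) for floxed and 7.17 ± 0.29 (SD, n = 4) for delta arrays. The floxed minus wild-type difference was 0.70 (SE 0.21; 95% CI 0.23 to 1.17), with an unadjusted p of 0.00741 and a limma adjusted p of 0.188. The delta minus wild-type difference was 0.39 (95% CI -0.05 to 0.82; adjusted p = 0.698). Delta 1 was the one array that separated sex pattern from genotype, so a fit with the sex pattern as a covariate takes the sex effect from delta 1 against the other delta arrays alone, and its values have no replicate behind that effect. In that fit the floxed difference was 0.82 with an SE of 0.38 (adjusted p = 0.698).

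T cell genes stood higher on some of the floxed arrays, and Fas is also made by activated T cells. The mean log2 level of 14 T cell genes was 6.89 to 7.16 on the wild-type arrays and 6.91 to 7.25 on the delta arrays. On floxed 1, 2 and 3 it was 7.70, 7.05 and 7.53. In floxed against wild-type 0 of 14 passed the test, and 7 of 14 had an unadjusted p under 0.05, beside 12.8% of all genes. Floxed 2, the array with the highest Fas level, was the floxed array whose T cell mean lay within the wild-type range. The mean over 11 natural killer cell genes was 5.87 to 6.00 in wild-type, 6.08 to 6.54 in floxed and 5.83 to 6.22 in delta, and the mean over 9 erythroid genes was 7.20 to 7.49, 7.62 to 8.04 and 7.04 to 7.58. In floxed against wild-type 4 of 11 and 5 of 9 of these genes had an unadjusted p under 0.05, beside 12.8% of all genes, and 0 passed.

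The mean of the myeloid genes separated in the same direction, but the single genes were divided. The mean log2 level of 12 myeloid genes was 6.75 to 6.79 on the wild-type arrays, 6.94 to 7.31 on the floxed arrays and 6.86 to 7.27 on the delta arrays. In floxed against wild-type 7 of the 12 lay above 0, where 41.9% of all genes did, and their median difference was 0.05. In that contrast 0 of 12 passed, and 3 of 12 had an unadjusted p under 0.05, beside 12.8% of all genes. Adgre1, the gene of the macrophage marker F4/80, was at 7.50, 7.81 and 7.09 in wild-type 1 to 3, then 9.20, 9.83 and 9.11 in floxed 1 to 3, and 8.69, 8.06, 8.38 and 10.15 in delta 1 to 4. It was highest on floxed 2 among the floxed arrays and on delta 4 among the delta arrays, as Fas was. Itgam was highest on the same arrays, but other genes of the list were not. Csf1r was the lowest of the floxed arrays on floxed 2 (6.58) and of the delta arrays on delta 4 (6.42). Lyz2 (7.40) and S100a8 (5.43) were also the lowest of the floxed arrays on floxed 2, while S100a8 was the highest of the delta arrays on delta 4 (6.03). The floxed minus wild-type difference was 1.91 for Adgre1 (SE 0.43; limma adjusted p = 0.0809) and 1.12 for Itgam, an integrin gene of myeloid cells (adjusted p = 0.276). The part of all these cells in the Fas and Basp1 values was not tested.

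Of 11 listed genes that act around the death receptor, 6 could be read. None passed the limma test in any contrast, and 0 had an unadjusted p under 0.05. Of all genes, 12.8% had one in floxed against wild-type, 7.89% in delta against wild-type and 6.42% in delta against floxed. Bid, which carries the death signal to mitochondria, differed by 0.19 in floxed against wild-type (adjusted p = 0.434), and Faim, an inhibitor of Fas-driven death, by -0.15 (adjusted p = 0.545).

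Efnb1 (probe set 10600936; gene at chrX:99136061-99149022) encodes ephrin-B1, a membrane ligand of Eph receptors that marks germinal centre B cells in the mouse. The arrays gave Efnb1 log2 levels of 7.42, 7.51 and 7.47 in wild-type 1 to 3, then 7.56, 7.74 and 7.39 in floxed 1 to 3, and 7.48, 7.54, 7.54 and 7.46 in delta 1 to 4. The arrays of all groups overlapped. Differences from wild-type were 0.10 for floxed (95% CI -0.08 to 0.28; limma adjusted p = 0.655) and 0.04 for delta (95% CI -0.13 to 0.21; adjusted p = 0.948). Among the other ephrins and Eph receptors, 0 of 14 measured of 15 listed passed the test. For floxed and for delta mice against wild-type and for delta against floxed mice, 2, 1 and 1 had an unadjusted p under 0.05. Of all genes 12.8%, 7.89% and 6.42% did. In floxed against wild-type Efna1 differed by 0.33 (adjusted p = 0.237) and Efnb2 by -0.15 (adjusted p = 0.373).

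**Figure D2:**
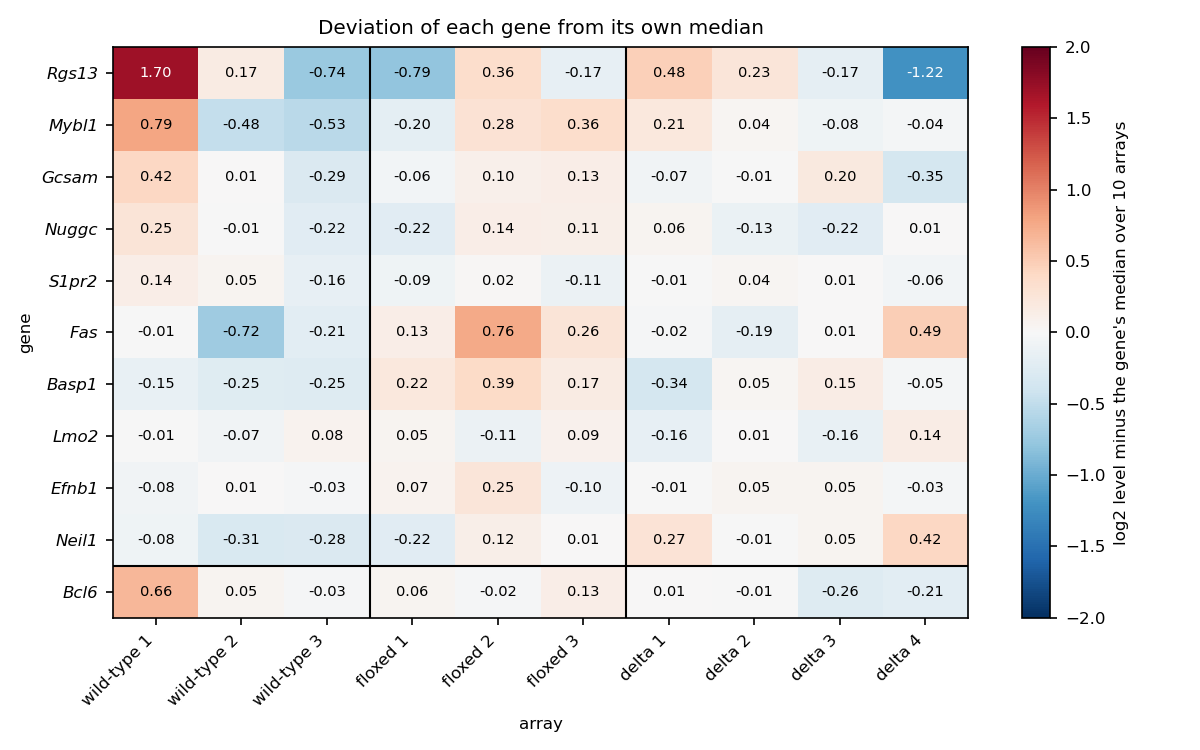
Heat map of each gene's log2 level minus its median over the 10 arrays (colour), for the 10 germinal centre genes and Bcl6 (rows) on the 10 arrays (columns). The wild-type 1 column is high for Rgs13 (8.11), Mybl1 (7.93) and Bcl6 (10.48), and near the median for Lmo2 and Efnb1.

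Mybl1 (probe set 10353010; gene at chr1:9667407-9700439) encodes A-MYB, a transcription factor of the MYB family made in dividing germinal centre B cells. For Mybl1 the log2 levels were 7.93, 6.66 and 6.60 in wild-type 1 to 3, then 6.94, 7.42 and 7.50 in floxed 1 to 3, and 7.35, 7.18, 7.06 and 7.10 in delta 1 to 4. Wild-type 1 was the highest of the 10 arrays, whereas wild-type 2 and 3 were the lowest of all. The wild-type mean of 7.06 ± 0.75 (SD, n = 3) therefore sat between 2 extremes, beside floxed arrays at 7.29 ± 0.30 (SD, n = 3) and delta arrays at 7.17 ± 0.13 (SD, n = 4). The differences from wild-type were 0.22 for floxed (95% CI -0.41 to 0.85; limma adjusted p = 0.799) and 0.11 for delta (adjusted p = 0.963). Without wild-type 1 they were 0.65 (SE 0.15; adjusted p = 0.153) and 0.54 (SE 0.14; adjusted p = 0.427), larger but also short of the threshold. Both other MYB family genes were measured. Myb, the founding member, was at 8.26, 8.77 and 7.86 in wild-type 1 to 3 and at 7.33 to 7.59 on the other 7 arrays, a floxed minus wild-type difference of -0.87 (SE 0.17; adjusted p = 0.0568), and Mybl2 differed by 0.04 (adjusted p = 0.902).

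Lmo2 (probe set 10474201; gene at chr2:103957903-103981878) encodes a LIM-domain protein that bridges transcription factors and marks germinal centre B cells in human tissue. Measured log2 levels of Lmo2 were 11.29, 11.23 and 11.38 in wild-type 1 to 3, then 11.35, 11.19 and 11.39 in floxed 1 to 3, and 11.14, 11.31, 11.14 and 11.44 in delta 1 to 4. The groups overlapped fully, and the interval of the floxed minus wild-type difference (0.01; 95% CI -0.19 to 0.21; limma adjusted p = 0.980) was among the narrower ones. The delta minus wild-type difference was -0.04 (95% CI -0.23 to 0.15; adjusted p = 0.958). Of 12 genes of the LMO2 complex and its relatives, 0 passed the test in any contrast. For floxed and for delta mice against wild-type and for delta against floxed mice, 0, 2 and 1 had an unadjusted p under 0.05. The shares of all genes were 12.8%, 7.89% and 6.42%. Tcf12, an E protein, differed by -0.09 (adjusted p = 0.606) and Gata2, a partner in blood progenitors, by -0.08 (adjusted p = 0.638) in floxed against wild-type.

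Basp1 (probe set 10427895; gene at chr15:25363277-25413764) encodes a membrane-associated protein that also acts as a transcriptional corepressor. Basp1 lay at log2 levels of 8.22, 8.12 and 8.11 in wild-type 1 to 3, then 8.58, 8.75 and 8.54 in floxed 1 to 3, and 8.02, 8.41, 8.52 and 8.32 in delta 1 to 4. Every floxed array lay above every wild-type and every delta array. Of all genes, 7.6% separated floxed above wild-type in this way and 3.61% separated delta below floxed. The means were 8.15 ± 0.057 (SD, n = 3) for wild-type, 8.63 ± 0.11 (SD, n = 3) for floxed and 8.32 ± 0.21 (SD, n = 4) for delta arrays. The floxed minus wild-type difference of 0.48 (SE 0.11; 95% CI 0.23 to 0.72) had an unadjusted p of 0.00129 and a limma adjusted p of 0.0924, and the delta minus floxed difference of -0.31 (95% CI -0.54 to -0.08) an adjusted p of 0.721.

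The Basp1 call depended on the fit. The floxed minus wild-type difference passed when only those 2 groups were fitted (adjusted p = 0.0335) and when delta 1 was left out (adjusted p = 0.0329), and over 19 alternatives the adjusted p ranged from 0.0329 to 0.253. Delta 1, the delta array of male pattern, had the lowest Basp1 level of the 10 arrays, 8.02, while the floxed arrays of male pattern had the highest. The fit with the sex pattern as a covariate, which adds the gap between delta 1 and the other delta arrays, gave 0.87 (SE 0.14; adjusted p = 0.152).

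Neil1 (probe set 10593887; gene at chr9:57142788-57148688) encodes a DNA glycosylase that removes oxidised bases as the first step of base excision repair. Array by array, Neil1 was at log2 levels of 8.79, 8.56 and 8.58 in wild-type 1 to 3, then 8.65, 8.98 and 8.88 in floxed 1 to 3, and 9.14, 8.86, 8.92 and 9.29 in delta 1 to 4. All 4 delta arrays lay above all 3 wild-type arrays, as was the case for 3.75% of all genes in that direction, and the floxed arrays overlapped both groups. The means were 8.64 ± 0.12 (SD, n = 3) for wild-type, 8.84 ± 0.17 (SD, n = 3) for floxed and 9.05 ± 0.20 (SD, n = 4) for delta arrays. The delta minus wild-type difference was 0.41 (SE 0.11; 95% CI 0.16 to 0.66; unadjusted p = 0.00436; limma adjusted p = 0.336), and the floxed minus wild-type difference was 0.19 (95% CI -0.07 to 0.46; adjusted p = 0.549). Over 19 alternatives the adjusted p of the delta difference ranged from 0.210 to 0.752. Of 15 other measured genes of base excision and antibody gene diversification, 0 passed in any contrast. For floxed and for delta mice against wild-type and for delta against floxed mice, 1, 0 and 0 had an unadjusted p under 0.05. The shares of all genes were 12.8%, 7.89% and 6.42%. In floxed against wild-type Polb, the repair polymerase, differed by -0.32 (adjusted p = 0.168) and Neil2 by -0.17 (adjusted p = 0.535).

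Nuggc (probe set 10416006; gene at chr14:65593499-65648444) encodes a nuclear GTPase found in germinal centre B cells. The log2 values for Nuggc were 6.59, 6.33 and 6.12 in wild-type 1 to 3, then 6.12, 6.48 and 6.45 in floxed 1 to 3, and 6.40, 6.21, 6.12 and 6.35 in delta 1 to 4. The groups overlapped, and the differences from wild-type were 0.0032 for floxed (95% CI -0.28 to 0.29; limma adjusted p = 0.995) and -0.08 for delta (95% CI -0.34 to 0.19; adjusted p = 0.942). For Mybl1, S1pr2, Gcsam, Rgs13, Lmo2, Efnb1 and Nuggc the delta minus floxed differences lay between -0.12 and 0.06, with adjusted p of 0.926 to 0.996. The delta minus floxed differences of Fas (-0.31; adjusted p = 0.847) and Neil1 (0.21; adjusted p = 0.816) also missed the threshold.

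**Figure D3:**
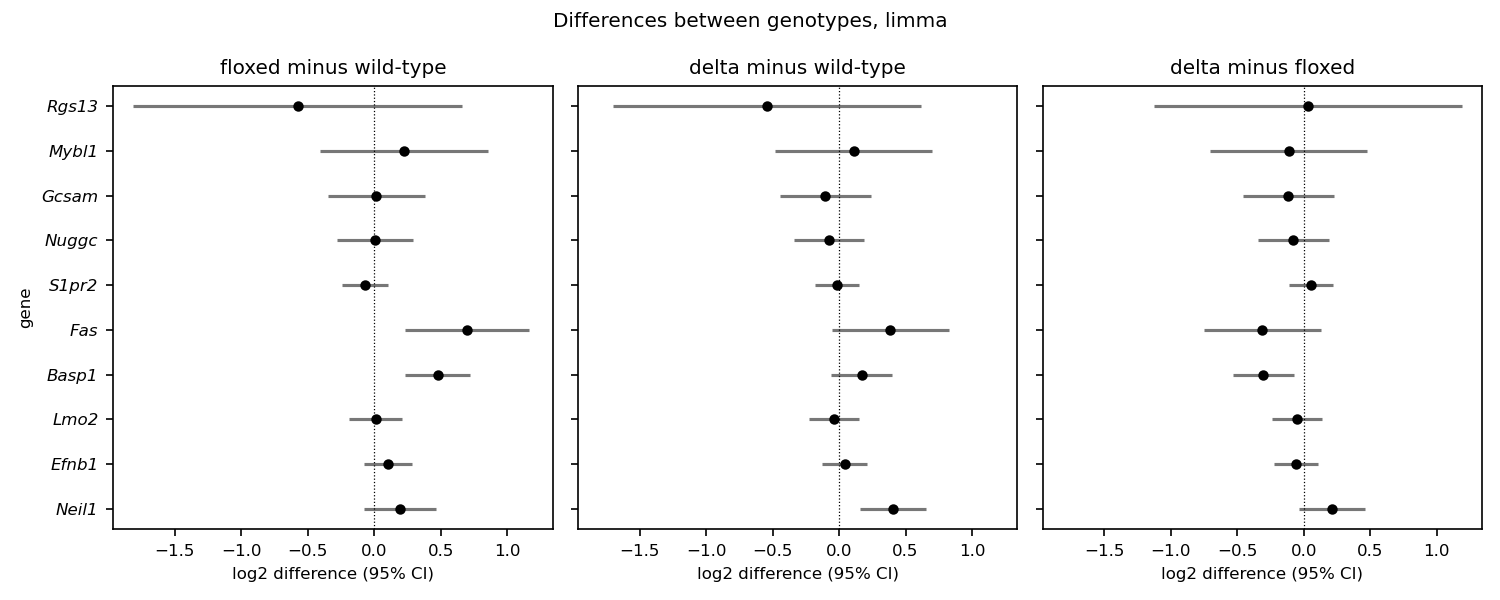
Differences of mean log2 level between genotypes for the 10 germinal centre genes, from limma, with 95% confidence intervals (horizontal lines); the dotted line marks 0. The intervals of Fas (0.23 to 1.17) and Basp1 (0.23 to 0.72) in floxed minus wild-type, of Neil1 (0.16 to 0.66) in delta minus wild-type and of Basp1 (-0.54 to -0.08) in delta minus floxed exclude 0 before adjustment over genes, and those of Rgs13 are the widest.

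Wild-type 1 stood apart from the other wild-type arrays in these genes. It was the highest of the 10 arrays for 5 of the 10 (Rgs13, Mybl1, Gcsam, Nuggc and S1pr2), as it was for 7.65% of all genes, and it lay above both other wild-type arrays for 8 of the 10, compared with 24.4% of all genes. Its excess over the mean of wild-type 2 and 3 was 1.98 on the log2 scale for Rgs13, a 3.94-fold higher intensity, and 1.30 for Mybl1, a 2.46-fold higher intensity. These were the 2 genes of the set with an excess of at least 2-fold, which 0.0853% of all genes showed (17 of 19937). Among the genes that were highest on that array, Rgs13 ranked 3 and Mybl1 ranked 8 by the size of the excess.

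The other genes of the set had smaller excesses. They were 0.56 for Gcsam, 0.45 for Fas, 0.37 for Nuggc, 0.21 for Neil1 and 0.19 for S1pr2 on the log2 scale. Basp1 (0.10), Lmo2 (-0.01) and Efnb1 (-0.07) were close to level between wild-type 1 and the other wild-type arrays. The median excess of the 10 genes was 0.29, and that of all genes was -0.02. For Rgs13 the gap from wild-type 1 down to the next highest of all arrays was 1.22, for Mybl1 0.43, for Gcsam 0.22, for Nuggc 0.11 and for S1pr2 0.09, so for the last 3 genes other arrays came close. Since these are values of 1 array, they have no replicate and no test.

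Bcl6 itself was highest on the same array. Its log2 levels were 10.48, 9.87 and 9.80 in wild-type 1 to 3, then 9.88, 9.80 and 9.96 in floxed 1 to 3, and 9.83, 9.82, 9.56 and 9.61 in delta 1 to 4. The floxed minus wild-type difference was -0.17 (limma adjusted p = 0.688) and the delta minus wild-type difference was -0.35 (adjusted p = 0.578), so no group difference of Bcl6 passed the test. The excess of wild-type 1 over the mean of wild-type 2 and 3 was 0.65 for Bcl6.

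Other lists were set beside the 10 genes on wild-type 1, which was the highest array for 7.65% of all genes. Of 22 measured genes of 24 listed, which hold Bcl6, it was the highest array for 3 (Bcl6, the interleukin 4 receptor gene Il4ra, and Id3, an inhibitor of E proteins), and the median excess was 0.06. Of 11 B cell genes, wild-type 1 was the highest array for 4 and lay above the mean of wild-type 2 and 3 for 10, with a median excess of 0.05. Dividing-cell genes were the highest on that array in 2 of 24 cases, with a median excess of 0.10. Mki67, a marker of cycling cells, was at 7.83 on wild-type 1 and at 6.98 and 7.23 on wild-type 2 and 3, but at 7.68 to 8.19 on the floxed arrays. T cell genes were at their lowest wild-type mean there (6.89), and the median excess of 7 follicular dendritic cell genes was -0.02.

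Other arrays were highest for the remaining genes. Floxed 2 was highest for Fas, Basp1 and Efnb1, as it was for 8.44% of all genes, and delta 4 was highest for Lmo2 and Neil1, as it was for 10.1% of all genes. Delta 4 was also the lowest array for Rgs13 and Gcsam. The mean of the 10 genes, each standardised over arrays, was 0.72 on wild-type 1, -0.50 on wild-type 2 and -0.88 on wild-type 3, then -0.25, 0.83 and 0.19 on floxed 1 to 3, and between -0.08 and 0.04 on the delta arrays. By this mean the wild-type arrays held 1 of the highest and both lowest values, and the 4 delta arrays lay close together.

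Over all 10 arrays, the genes that were highest on wild-type 1 were also those with the highest correlation with Bcl6. Pearson's r was 0.754 for Rgs13 (permutation p = 0.0195) and Spearman's rho was 0.442 (p = 0.205). For Gcsam r was 0.624 (permutation p = 0.0612; rho 0.382, p = 0.277), and for Mybl1 it was 0.622 (permutation p = 0.0599; rho 0.455, p = 0.191). For Nuggc r was 0.618 (permutation p = 0.0343; rho 0.442, p = 0.205), and for S1pr2 it was 0.467 (permutation p = 0.172; rho 0.212, p = 0.560). For these 5 genes the rank correlations were below the Pearson values. After adjustment over the 19936 genes tested against Bcl6, every p of the 10 genes was 0.999 for Pearson's r and 1 for Spearman's rho. No gene at all passed (0 of 19936), and an unadjusted permutation p under 0.05 was found for 2 of the 10 and for 3.34% of all genes.

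The rest of the set had weak or negative values. Pearson's r was 0.081 for Lmo2, -0.151 for Fas, -0.203 for Basp1, -0.332 for Neil1 and -0.350 for Efnb1, with rho of 0.079, -0.103, 0.018, -0.406 and -0.345. In all, 6 of 10 lay above 0, where 47.3% of all genes did.

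**Figure D4:**
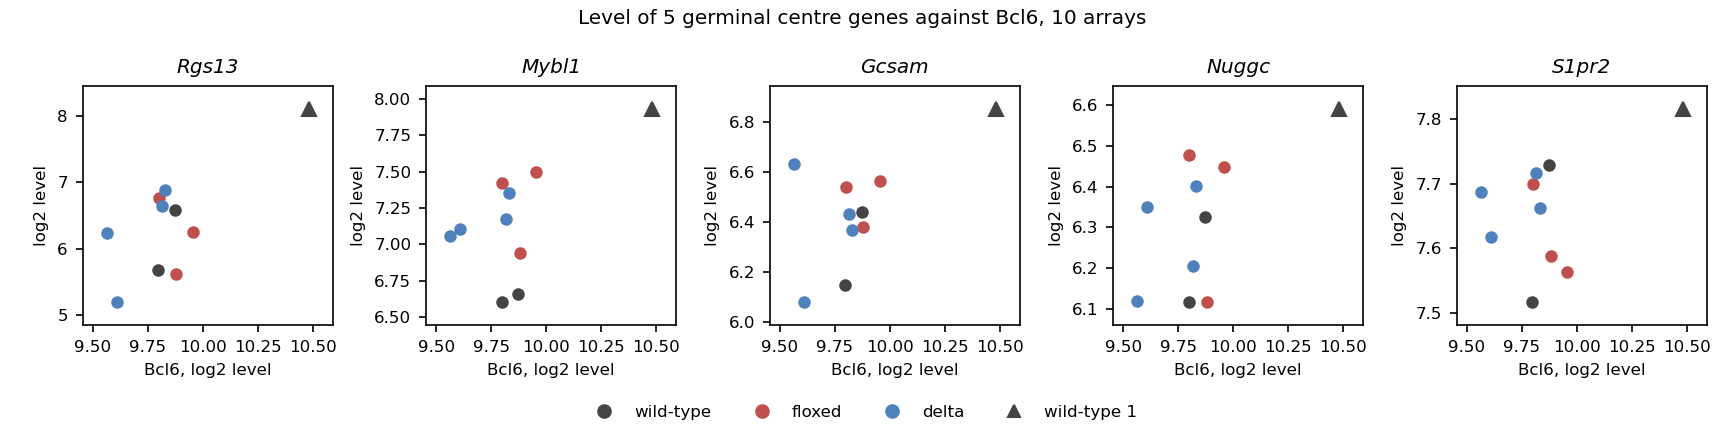
Log2 level of Rgs13, Mybl1, Gcsam, Nuggc and S1pr2 (vertical axes, each with its own range) against the log2 level of Bcl6 (horizontal axes) on the 10 arrays; colours are genotypes and the triangle is wild-type 1. Wild-type 1 lies alone at a Bcl6 level of 10.48, while the other 9 arrays lie between 9.56 and 9.96.

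These relations rested largely on wild-type 1. Without it r was 0.337 for Rgs13, 0.297 for Nuggc, 0.175 for Gcsam, 0.109 for Mybl1 and -0.191 for S1pr2. Without the 2 arrays farthest from the median Bcl6 level, wild-type 1 and delta 3, r was 0.473 for Rgs13, 0.769 for Gcsam, 0.116 for Mybl1, 0.018 for Nuggc and -0.051 for S1pr2. The value of Gcsam was thus as high without both arrays as with them, but low when wild-type 1 alone was left out. On the 6 arrays of female pattern r was 0.878 for Rgs13, 0.800 for Nuggc, 0.698 for Mybl1, 0.643 for Gcsam and 0.632 for S1pr2, and on the 5 of these without wild-type 1 it was 0.513, 0.130, -0.563, -0.065 and 0.117. The 4 arrays of male pattern were too few for a correlation. Deviations from the group means gave r of 0.886 for Mybl1, 0.782 for Rgs13, 0.646 for Gcsam, 0.639 for Nuggc and 0.587 for S1pr2, again with wild-type 1 included.

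A limma slope on the Bcl6 level across all arrays gave 0 of 10 genes past the threshold, and 0% of all genes. The slope was 2.48 log2 units of Rgs13 per log2 unit of Bcl6 (SE 0.63; adjusted p = 1.00) and 1.00 for Mybl1 (SE 0.37). Unadjusted p was under 0.05 for 4 of the 10 (Mybl1, Gcsam, Rgs13 and Nuggc) and for 3.75% of all genes. With the genotype in the fit the slopes of Rgs13 and Mybl1 were 3.05 and 1.74, 0 of 10 passed, again beside 0% of all genes, and the same 4 genes had an unadjusted p under 0.05, beside 3.27% of all genes. Without wild-type 1 the slopes with no genotype in the fit were 1.56 for Rgs13 (SE 1.33) and 0.27 for Mybl1 (SE 0.77). With the genotype in the fit they were 3.04 for Rgs13 (SE 1.77) and 0.72 for Mybl1 (SE 0.60). The size of that Rgs13 slope thus hardly changed without wild-type 1, but its SE rose from 0.77.

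The genes also varied together to different degrees. Across the 10 arrays, r was above 0 for 27 of the 45 pairs with a median of 0.11, whereas among all pairs of genes 51.0% were above 0 with a median of 0.01. Among the 10 pairs of the 5 genes that were highest on wild-type 1, all 10 were above 0, with a median of 0.68 and a range of 0.47 to 0.81. These 5 were chosen for a shared high array, which raises their correlation by choice. Without that array all 10 pairs were still above 0, with a median of 0.43 and a range of 0.15 to 0.67. The pairs of Rgs13 with Gcsam and with S1pr2 each had r of 0.81, and each had 0.66 without wild-type 1. Rgs13 and Lmo2 ran the opposite way, with r of -0.51 over 10 arrays and -0.78 without wild-type 1. All these are descriptions over a few arrays.

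Other genes of the same pathways were compared between genotypes. Of the 22 further germinal centre genes, 0 passed in any contrast. For floxed and for delta mice against wild-type and for delta against floxed mice, 6, 6 and 3 had an unadjusted p under 0.05. Of all genes 12.8%, 7.89% and 6.42% did. In floxed against wild-type Irf8, a transcription factor of B cell identity, differed by 0.32 (limma adjusted p = 0.0684) and Ezh2, a histone methyltransferase needed in germinal centres, by -0.41 (adjusted p = 0.0684). The median difference of that list was -0.04, against -0.02 over all genes. Of 10 measured genes that are low in germinal centre B cells, Itgb7, an integrin subunit for homing to gut, rose in floxed mice by 0.43 (SE 0.08; adjusted p = 0.0445), and Fcer2a, the low-affinity IgE receptor, differed by -0.34 (adjusted p = 0.284). Itgb7 was the only gene of that list to pass in any contrast, and 0.552% of all genes passed in floxed against wild-type. An unadjusted p under 0.05 was found for 3, 3 and 1 of the 10, in the same order of contrasts as above.

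Around S1pr2, 1 of 14 sphingosine-1-phosphate receptors, enzymes and G protein partners passed. Arhgef12, an exchange factor that acts downstream of G12 and G13 proteins, rose by 1.00 (SE 0.19; adjusted p = 0.0450) in floxed mice. Its delta minus wild-type difference was 0.85 (SE 0.18; adjusted p = 0.161). Sgpl1, the lyase that breaks down sphingosine-1-phosphate, differed by 0.29 in floxed against wild-type (adjusted p = 0.122). Around Rgs13, 0 of 14 other measured RGS genes passed in any contrast. For floxed and for delta mice against wild-type and for delta against floxed mice, 3, 1 and 1 had an unadjusted p under 0.05. Of all genes 12.8%, 7.89% and 6.42% did. In floxed against wild-type the smallest p were those of Rgs3 at 0.41 (adjusted p = 0.0934) and Rgs18 at -0.64 (adjusted p = 0.263).

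Of 24 dividing-cell genes, 0 passed in any contrast. For floxed and for delta mice against wild-type and for delta against floxed mice, 6, 3 and 8 had an unadjusted p under 0.05. The shares of all genes were 12.8%, 7.89% and 6.42%. The list held Mcm2, a subunit of the replicative helicase, at 0.24 (adjusted p = 0.122) and Top2a, a topoisomerase of dividing cells, at 0.39 (adjusted p = 0.198) in floxed against wild-type. The median of that list was 0.12 in floxed against wild-type, -0.07 in delta against wild-type and -0.11 in delta against floxed. Of 9 genes of T follicular helper cells, the partners of germinal centre B cells, Ctla4 rose in floxed mice by 0.78 (SE 0.13; adjusted p = 0.0282), and 8 did not pass. Of 9 plasma cell genes, 2 passed in floxed against wild-type, in opposite directions. Jchain, which joins antibody polymers, rose by 1.64 (adjusted p = 0.00383), and Sdc1, the plasma cell surface proteoglycan, fell by 0.51 (adjusted p = 0.0450). For these 2 genes, as for Itgb7, Arhgef12 and Ctla4, sex pattern and genotype cannot be told apart in floxed against wild-type. In that contrast 0.552% of all genes passed (110), and 18 to 240 genes did on leaving out 1 array. In delta mice, which carry mb1-Cre, Cd79a, the gene also called mb1, fell by 0.48 against wild-type (adjusted p = 0.0427).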

How the data were processed

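The authors deposited 1 table of values for the 10 arrays, intensity on a linear scale made with RMA, per the submitters' processing notes. RMA corrects background, equalises the arrays' distributions and summarises probes, so shifts common to all genes are removed. No version or genome build is named in the sources used here. No detection calls were used here, so low levels may lie near background: Y-linked genes on arrays of female pattern lay at log2 levels of 3.71 to 5.62.

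The log2 of each deposited intensity was taken. Of 34760 probe sets, 21640 had 1 gene symbol, 1321 had several and 11799 had none in the platform annotation. Probe sets with 1 symbol were kept, and for 954 genes with several the one with the highest mean was used. Groups followed the labels. limma 3.58.1 (R 4.3.3) fitted 3 group means, or a slope on Bcl6, to 19937 genes and was tested on simulated data. Correlations used 100000 permutations, two-sided. No sign of pairing by replicate number was seen. Same-numbered arrays of different groups correlated in their deviations from group means at -0.08 to 0.12, and arrays of different numbers at -0.17 to 0.21.

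The genes and the lists were chosen with earlier results of these data known. Named outside the set are Bcl6, up to 4 genes of each list that passed (otherwise the 2 with the smallest p in floxed against wild-type, plus those that describe an array), the genes most like the set over arrays, and, among genes highest on wild-type 1, the 8 with the largest excess over the other wild-type arrays. Alternatives were other normalizations, probe set rules, filters, fits, a sex covariate, a block on replicate number, and fits without 1 array at a time.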

Additional observations from a re-analysis of the deposited data

How the results depend on the processing

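All values are log2 differences or slopes unless called counts. No gene of the set passed in the main fits, and under the alternatives 1 did: Basp1 in floxed against wild-type, with those 2 groups alone or without delta 1. Of 185 alternative values in each group contrast, 164, 175 and 178 (floxed and delta against wild-type, delta against floxed) kept direction and call, as did 180 of 185 slopes on Bcl6 and 153 of 165 within groups. The number of genes of the set that were highest on wild-type 1 stayed at 5 after quantile normalization and after median centring.

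Counts over all genes moved most. In floxed against wild-type 110 genes became 208 with array weights, 188 with a replicate block, 193 with the 2 groups alone (1 of the set) and 2 with the sex pattern as covariate, and 18 to 240 on leaving out 1 array: 24 without wild-type 1, 18 without wild-type 2, 46, 37 and 25 without floxed 1, 2 and 3, 67 without delta 3 and 240 without delta 4 (0 to 1 of the set). In delta against wild-type 15 became 0 with every probe set kept, 9 with a trended robust prior, 6 with the replicate block, 3 with the sex covariate, 0 with the 2 groups alone, and 0 to 23 on leaving out 1 array. In delta against floxed 1 became 3 with the trended robust prior, 2 with the replicate block, 2 with the 2 groups alone and 1 to 10 on leaving out 1 array. The cause was not tested. The values showed no sign of pairing by replicate number, and 3 of 10 arrays were closest to an array of their own number.

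Directions that reversed belonged to values short of the threshold. In floxed against wild-type these were Lmo2 at -0.0033 after quantile normalization; Lmo2 (-0.030), Gcsam (-0.077) and Nuggc (-0.035) with array weights; and Mybl1 (-0.016) and Nuggc (-0.17) with the sex covariate. In delta against wild-type Mybl1 was -0.11 with array weights and S1pr2 0.0022 with the replicate block. In delta against floxed Rgs13 was -0.077 with array weights, and Mybl1 0.065 and Nuggc 0.053 with the sex covariate. Slopes on Bcl6 without the 2 farthest arrays were -0.039 for S1pr2, 0.38 for Basp1 and -0.29 for Lmo2; within groups they were 0.0071 for Basp1 and 0.045 for Lmo2 after median centring, and 0.062 and 0.042 with the sex covariate.

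On leaving out 1 array, floxed minus wild-type ran from -0.0074 to 0.65 for Mybl1, -0.15 to 0.20 for Gcsam, -1.13 to 0.084 for Rgs13, -0.029 to 0.070 for Lmo2 and -0.11 to 0.13 for Nuggc. Delta minus wild-type ran from -0.12 to 0.54 for Mybl1, -0.10 to 0.049 for S1pr2, -0.27 to 0.083 for Gcsam, -1.10 to 0.11 for Rgs13 and -0.19 to 0.047 for Nuggc. Delta minus floxed ran from -0.27 to 0.38 for Rgs13 and -0.14 to 0.029 for Efnb1. Slopes ran from -0.11 to 0.22 for S1pr2 and -0.060 to 0.13 for Lmo2, and within groups from -1.80 to 0.41 for Fas, -0.99 to 0.062 for Basp1, -0.085 to 0.094 for Lmo2 and -0.33 to 0.29 for Neil1. Against the mean of the other 9 arrays, wild-type 1 was at -0.07 for Fas, -0.16 for Basp1 and -0.09 for Neil1. Keeping only genes above the median level left no value for Fas, Gcsam, Mybl1, Nuggc and Rgs13; signal over background was not tested.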

Other observations

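Some genes outside the set followed its mean over the 10 arrays closely. The mean was taken over the 10 germinal centre genes, each standardised over arrays, and the 5 genes with the highest Pearson r to it were Marchf3 (0.886), Gbp11 (0.884), Olfr703 (0.870), Morf4l2 (0.841) and Ncapg (0.840), a condensin subunit of dividing cells. Marchf3, a ubiquitin ligase gene, was at a log2 level of 7.99 on wild-type 1 and on floxed 2, and between 7.52 and 7.71 on the other 8 arrays. For single genes, the closest to S1pr2 were Wdr38 (0.921), Hsd11b2 (0.900) and Syt10 (0.886). The closest to Mybl1 were Rnps1 (0.878), Cdon (0.868) and Dek (0.859), and the closest to Gcsam were Tecpr1 (0.930), Abi2 (0.919) and Hikeshi (0.894). These are the highest of 19937 values over 10 arrays and say nothing of shared control.

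Among the genes outside the set that were highest on wild-type 1, the 8 with the largest excess over the mean of wild-type 2 and 3 did not all set that array apart. Trim30d (10.40, 4.64 and 10.12 on wild-type 1, 2 and 3), Trim12a (10.92, 5.79 and 10.78) and Ccnyl1 (8.84, 6.25 and 8.71) were low on wild-type 2 and high on both others. Ctse, a cathepsin gene, was at 11.56, 11.41 and 8.32 on the wild-type arrays and was split within each group. Crisp3 was at 8.66 on wild-type 1 and at 6.15 to 7.35 on the other 9 arrays, and the orexin receptor gene Hcrtr2 at 8.08 and at 5.70 to 7.14. AI506816 and Nxpe2 had excesses of 1.17 and 1.14.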
